A study of Mus musculus with 9 samples.

Results

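Excitation-contraction coupling is the chain of events by which an electrical signal on the membrane of a muscle fibre releases calcium from internal stores, and this account follows 30 mouse genes chosen for a role in that chain or in calcium handling. Each gene was represented by 1 probe set of the deposited array table, the one with the highest mean over the 9 arrays where a gene had several. Of the 30 genes, 29 had a probe set under their symbol, among 24011 genes in all, and Scn4a was not analysed here. Of the 29, 28 passed the filter on dim genes and were tested, 27 of them above its limit on all 9 arrays, and the chloride channel gene Clcn1 was not tested.

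The cells were primary myoblasts, the dividing progeny of the satellite cells that repair skeletal muscle, grown in Ham's-F10 with 20% FBS and basic FGF and then moved to DMEM with 2% horse serum. The 3 groups were mock-treated controls, cells given 100 ng/ml BMP4 and cells given 500 ng/ml GREM1, with 3 arrays each and RNA taken after 24 h. All 3 groups were therefore in low serum, the condition in which myoblasts stop dividing and begin to form muscle fibres. BMP4 belongs to the bone morphogenetic proteins, which cells release to signal to each other, and GREM1 (gremlin 1) traps several of these proteins outside the cell. The labels name neither the strain, age and number of the mice nor whether the 3 replicates of a group were separate cultures, so p-values measure only the spread between these samples, which may be technical.

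In a muscle fibre the action potential runs down the T-tubules, inward folds of the membrane. There a voltage-sensing calcium channel, whose pore-forming subunit is the product of Cacna1s, opens the ryanodine receptor of the sarcoplasmic reticulum, and the released calcium starts contraction. Calcium is then pumped back by the SERCA pumps. Myoblasts begin to make these proteins as they differentiate, before the triads, the sites where T-tubule and reticulum meet, are in place.

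The labelled cell type was checked against markers. All 8 of 8 myogenic markers were tested, and Pax7, Myod1 and Myog, which mark satellite cells, committed myoblasts and differentiating cells, had control means of 7.59, 9.35 and 10.01 on the log2 scale. All 8 of 8 markers of differentiating muscle were tested too. In the lists for other cell types, some markers did not reach the filter limit on 3 arrays: Pdgfra, Dcn, Lum and Dpt of 8 fibroblast markers, Cnn1 and Kcnj8 of 8 smooth muscle and pericyte markers, Kdr, Tek and Emcn of 6 endothelial markers, and Ptprc, Adgre1 and Cd52 of 6 leukocyte markers. The same held for S100b of 3 measured Schwann cell markers and for Ryr2 and Myl7 of 6 cardiomyocyte markers. Others of these lists were above the limit on all 9 arrays, among them Col3a1, Smtn, Cd68 and Tnni3, with control means of 7.37, 7.71, 6.54 and 5.93. Array medians were between 5.00 and 5.12, and control replicate 1 stood apart on the second principal component, at 31.6 against 6.12 for the next array.

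After GREM1, 3 of the 28 tested genes rose against control and 0 fell, where 2.07% of all 17142 tested genes rose and 2.21% fell (355 and 379 genes, or 391 and 271 with arrays centred on their medians). They were Atp2a1, the fast-muscle SERCA pump, Mrln, which encodes myoregulin, a small membrane protein that inhibits that pump, and Bin1, whose product bends membrane into T-tubules. After BMP4, 0 of 28 passed the same test, where 0.117% of all tested genes were called, and 0 had an unadjusted p under 0.05 in limma, where 8.02% of all tested genes did. With GREM1 12 of 28 had one, where 20.0% of all tested genes did. Between the treatments Atp2a1 and Mrln were lower with BMP4 than with GREM1, so 2 of 28 passed, where 6.45% of all tested genes did, 2.83% lower and 3.62% higher with BMP4. In RNA from a whole culture, fewer cells of a kind and less RNA per cell cannot be told apart. Differences are given on the log2 scale with their standard error (SE) from limma, which was fitted on all 9 arrays, and a gene passed at an adjusted p below 0.05 over all tested genes.

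Over the 29 measured genes the median difference was 0.37 for GREM1 against control, 0.028 for BMP4 against control and -0.33 for BMP4 against GREM1. The medians over all tested genes were -0.0057, -0.0060 and -2.33e-05. For GREM1 against control 27 of the 29 values were above 0, as were 48.6% of all tested genes, and the range ran from -0.13 for Trdn to 0.85 for Atp2a1. The 3 GREM1 arrays lay above all 3 controls for 13 of the 29 genes and below them for 0, where 11.3% of tested genes lay above. For BMP4 against control 17 values were above 0, as were 48.2% of all tested genes, and the groups overlapped for each of the 29, where 11.2% of all tested genes did not overlap. GREM1 and BMP4 were set against the same 3 controls, and the third comparison uses the same treated arrays again, so the 3 sets of values are not independent.

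**Figure D1:**
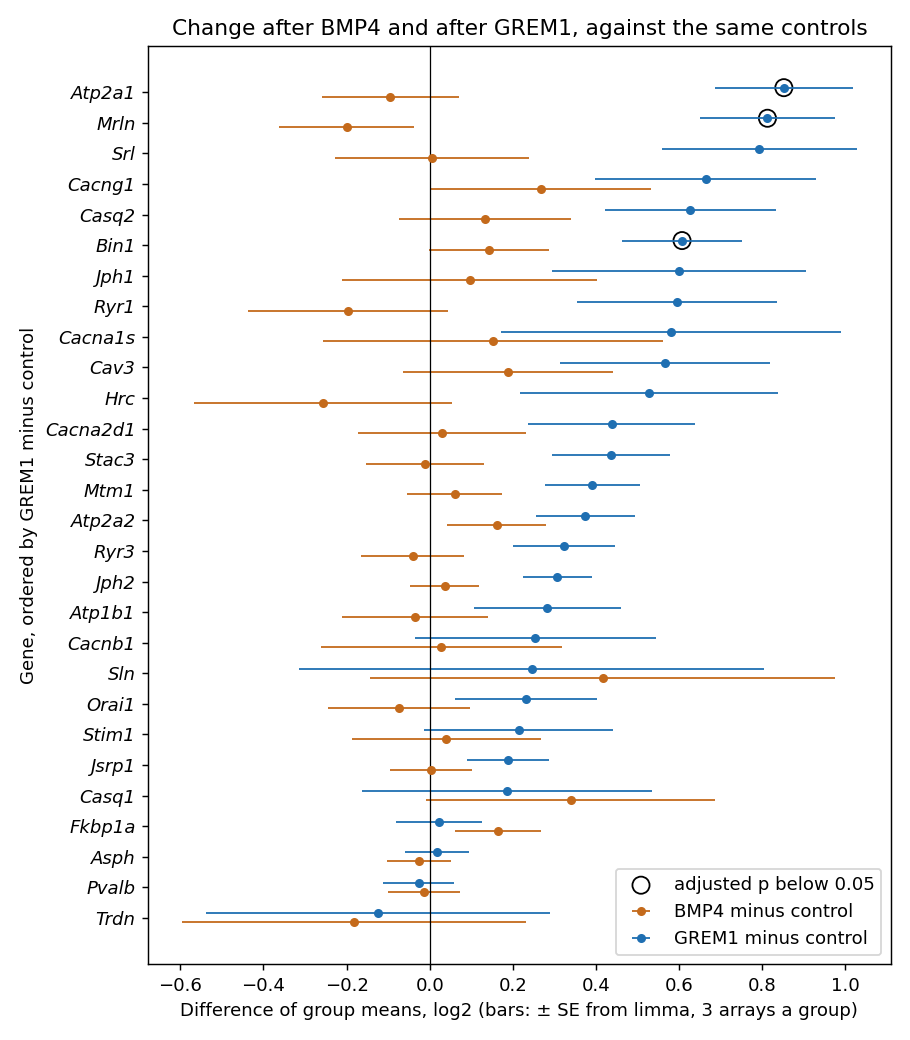
Difference of each treated group from the controls for the 28 tested genes, on the log2 scale, ordered by the GREM1 value, with bars for ± SE from limma over 3 arrays a group. Open circles mark Atp2a1, Mrln and Bin1, the genes past the test with GREM1, and the GREM1 values run from -0.13 to 0.85 while the BMP4 values run from -0.26 to 0.42.

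Of 8 markers of differentiating muscle cells, 1 rose with GREM1 and 4 passed higher with the block, where 2.07% and 5.58% of all tested genes did. All 8 values were above 0, from 0.013 for Tnnt1 (adjusted p = 0.977) to 1.70 for Ckm. Myog read 9.88, 10.46 and 9.69 in the controls and 10.75, 11.05 and 10.94 with GREM1. Its difference of 0.90 ± 0.27 passed with the block (adjusted p = 0.0947, and 0.0167 with it). The summed linear level of the 8 ran from 19262 to 25139 in the controls, 19982 to 25735 with BMP4 and 26385 to 28001 with GREM1. The muscle creatine kinase Ckm, the member that rose, went from 6.80, 6.77 and 6.52 to 8.09, 8.39 and 8.71. The 8 myogenic markers summed to 6093 to 8228 in the controls, 8087 to 8611 with BMP4 and 8616 to 9272 with GREM1. With GREM1 5 of the 8 values were above 0 against control and 3 below, which were Myf5, Pax7 (-0.20) and Vcam1 (-0.15). Cdh15 and Itga7, adhesion genes of the muscle lineage, rose by 0.91 ± 0.11 and 1.00 ± 0.12 (adjusted p = 0.00348 and 0.00321). Myf5, a factor of undifferentiated myoblasts, was -0.85 ± 0.29 and passed with the block (adjusted p = 0.144, and 9.74e-04 with it).

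Among markers of other cells, the summed level of 8 fibroblast markers was 283 to 368 in the controls, 274 to 332 with BMP4 and 243 to 279 with GREM1. That of 8 smooth muscle and pericyte markers was 407 to 452, 436 to 468 and 493 to 583, and those of endothelium (87.7 to 90.9 in the controls and 86.5 to 97.4 with GREM1), leukocytes (155 to 170 and 146 to 160) and Schwann cells (74.6 to 85.7 and 75.0 to 86.0) overlapped between control and GREM1. For 6 cardiomyocyte markers it was 150 to 200 in the controls, 132 to 144 with BMP4 and 131 to 140 with GREM1. Among them Tnni3 read 6.53, 5.59 and 5.68 in controls 1 to 3. It read 5.46, 5.20 and 5.46 with BMP4 and 5.33, 5.34 and 5.23 with GREM1. Nppb, at 0.14, was the 1 value of this list above 0 with GREM1 against control. With GREM1 5 of the 8 smooth muscle and pericyte values were above 0 against control and 3 below. Abcc9 (0.88) and Smtn (0.30) were highest, Pdgfrb (-0.32) and Rgs5 (-0.20) lowest. The 8 fibroblast values, 1 above 0 and 7 below, ran from -0.52 for Col3a1 to 0.13 for Thy1. With the block Abcc9 and Smtn passed higher and Col3a1 lower (adjusted p = 9.16e-04, 0.0495 and 0.00775), and these did not pass without it. The sums thus do not describe each marker of a list. The part of these lists in the results was not tested.

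Replicate 3 stood low in these genes. It was the lowest array of its group for 19 of 29 genes in the controls, 27 of 29 with BMP4 and 18 of 29 with GREM1. It took that place in all 3 groups at once for 17 of 29 genes, or 58.6%, where this held for 10.1% of all tested genes. Measured from each gene's own mean over the 9 arrays, the median of the 29 genes was -0.057, 0.038 and -0.46 in controls 1 to 3, 0.039, 0.029 and -0.46 with BMP4, and 0.32, 0.33 and 0.11 with GREM1. The lowest GREM1 array thus lay above the highest control and the highest BMP4 array in this median. The same median over all tested genes lay between -0.0054 and 0.0075 on every array. The pooled SD within groups had a median of 0.25 over the 29 genes and of 0.14 over all tested genes.

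**Figure D2:**
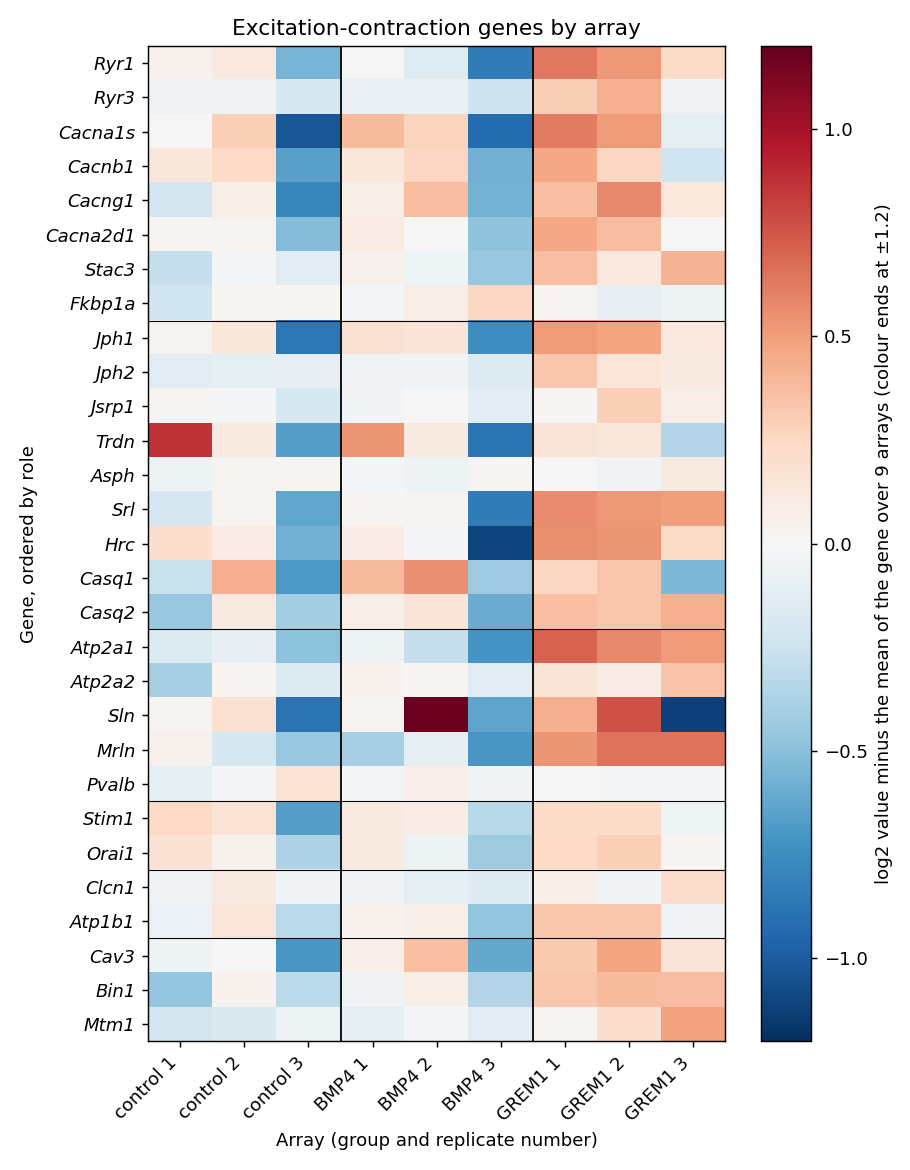
Values of the 29 measured genes on each of the 9 arrays, as the log2 value minus the mean of that gene, with genes in rows ordered by role and arrays in columns by group and replicate number. Blue columns for control 3 and BMP4 3 show medians of -0.46 in both, and the 3 GREM1 columns have medians of 0.11 to 0.33.

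With the replicate number as a block, which removes differences shared by a number, 13 of 28 genes passed for GREM1 against control, all higher, where 5.58% of all tested genes passed higher. The 3 genes above were among them, and the other 10 were Ryr1, Ryr3, Cacna1s, Cacng1, Cacna2d1, Jph1, Jph2, Srl, Cav3 and Mtm1. For BMP4 against control 0 of 28 passed with the block, where 0.379% of all tested genes did. The median SE of the tested genes went from 0.19 to 0.11 with the block. Within number 1 the GREM1 array was above the control in 26 of 29 genes, within number 2 in 24 and within number 3 in 26, with medians of 0.40, 0.26 and 0.53. Of all tested genes 46.8%, 48.4% and 46.3% were above the control within these numbers. All 3 differences were above 0 for 20 of 29 genes, where this held for 21.1% of all tested genes.

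The call of 3 genes depended on single arrays. Without control replicate 3 or any one of the 3 GREM1 arrays 0 of the 28 passed. In these runs 268, 248, 245 and 482 of all tested genes were called, in place of 734. Mrln alone passed without control replicate 1, and without BMP4 replicate 3 the count was 5, with Srl and Casq2 added. Over all tested genes 307 and 901 were called in those runs.

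Atp2a1 and Mrln, among the calcium pumps that refill the reticulum and their regulators, had the largest differences of the 29 genes with GREM1. Atp2a1 read 9.03, 9.09 and 8.69 in controls 1 to 3, 9.13, 8.91 and 8.48 with BMP4, and 9.90, 9.76 and 9.70 with GREM1. All 3 GREM1 arrays were above all 6 other arrays, whose own ranges overlapped. Atp2a1 rose with GREM1 by 0.85 ± 0.17 (1.81-fold, adjusted p = 0.0239, and 0.00226 with the replicate block), and BMP4 differed from control by -0.095 ± 0.17 (adjusted p = 0.906). Between the treatments it was 0.95 ± 0.17 lower with BMP4 (adjusted p = 0.00944). The rise against control lost its call without control replicate 1 or 3 or any GREM1 array, with adjusted p up to 0.0955, while the difference between the treatments kept its call under every alternative run (highest adjusted p = 0.0483).

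Mrln read 7.30, 7.04 and 6.79 in the controls, 6.85, 7.14 and 6.55 with BMP4, and 7.78, 7.90 and 7.90 with GREM1. The GREM1 arrays again lay above every other array. Mrln rose by 0.81 ± 0.16 (1.76-fold, adjusted p = 0.0259, and 0.00820 with the block), and was 1.01 ± 0.16 lower with BMP4 than with GREM1 (2.02-fold, adjusted p = 0.00600). The rise against control lost its call without control replicate 2 or 3 or any GREM1 array (adjusted p up to 0.0984), and the second difference kept its call under every alternative run (highest adjusted p = 0.0324).

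The other 3 genes of this group did not pass. Atp2a2, the SERCA gene of slow muscle and of most other tissues, read 10.23, 10.65 and 10.47 in the controls and 10.78, 10.72 and 10.97 with GREM1, a difference of 0.37 ± 0.12 (adjusted p = 0.114) with no overlap between the groups. Sln, which encodes sarcolipin, another small inhibitor of the pump, had the widest spread of the 29 genes. It read 5.72, 5.87 and 4.80 in the controls, 5.72, 6.86 and 5.05 with BMP4, and 6.12, 6.45 and 4.56 with GREM1, with replicate 3 lowest each time and a difference of 0.25 ± 0.56 for GREM1. Pvalb, the calcium buffer parvalbumin of fast fibres, stayed between 3.95 and 4.22 on every array, close to the filter limit of 3.89 to 4.02, and its differences are not informative.

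**Figure D3:**
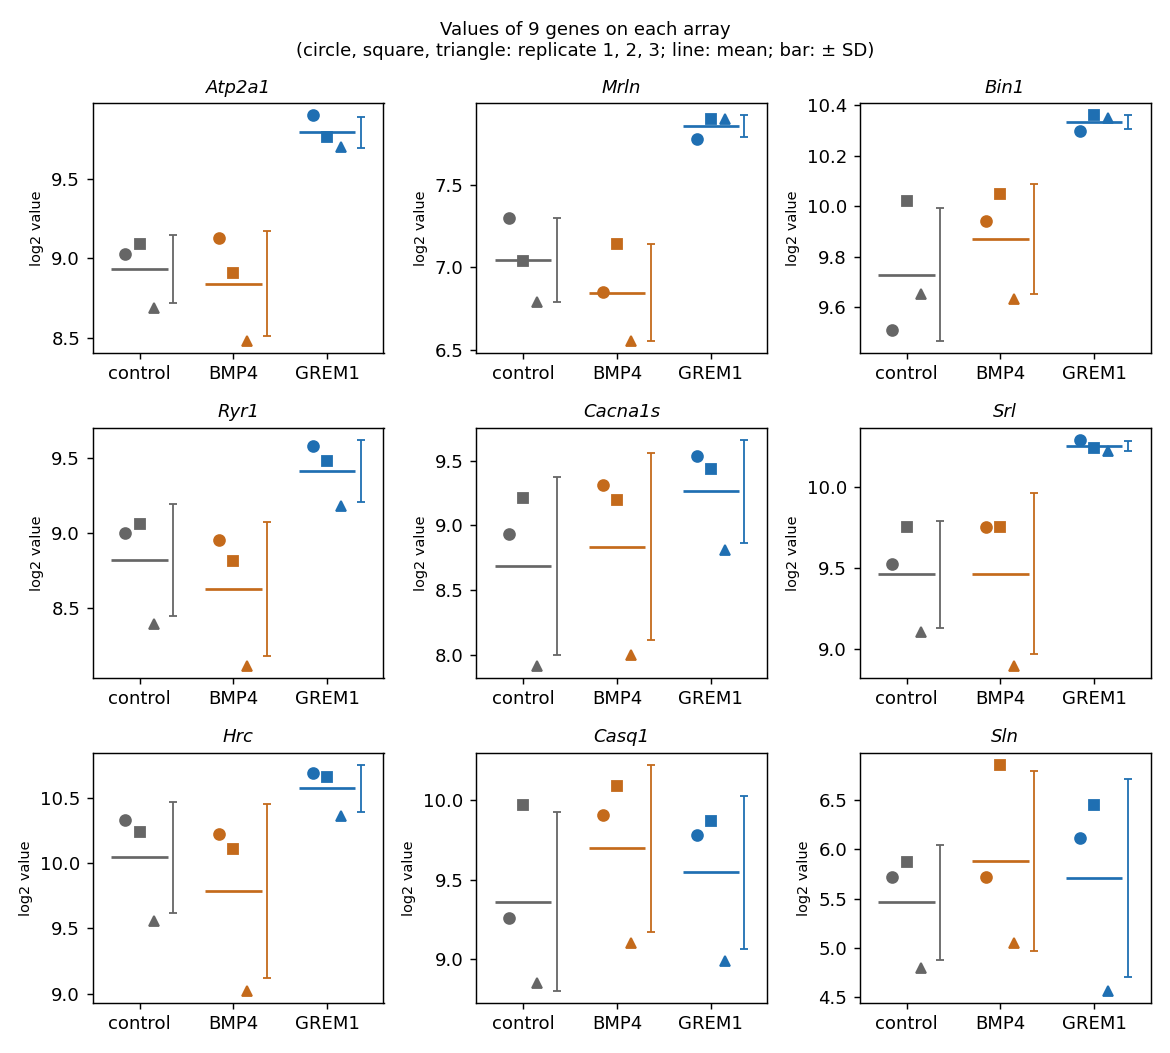
log2 values of 9 genes on each array (symbols for replicates 1, 2 and 3), with the mean of the group as a line and ± SD as a bar, n = 3 arrays a group. The GREM1 points of Atp2a1, Mrln, Bin1, Ryr1, Srl and Hrc lie above all control points, those of Cacna1s, Casq1 and Sln overlap them, and replicate 3 is lowest in every group for Atp2a1, Ryr1, Srl, Hrc, Cacna1s, Casq1 and Sln.

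The promoters of Atp2a1 and Mrln are shown because myogenic transcription factors of the MyoD family bind the E-box CAGCTG and MEF2 factors bind an A and T rich site, and both act on muscle genes. Sequences are the 250 bases before the RefSeq start site on GRCm38.p6, written 5′ to 3′ on the strand of the gene, with CAGCTG in capitals. CAGCTG reads the same on both strands, the MEF2 consensus was searched on both strands, and no member's window held both. A window was given for 18 of the 29 measured genes. Atp2a1 (window chr7:126463074-126463323, minus strand) and Mrln (chr10:70204414-70204663, plus strand) stand beside Cacna1s (chr1:136052561-136052810, plus strand) and beside Fkbp1a (chr2:151542233-151542482, plus strand). Cacna1s and Fkbp1a hold CAGCTG and did not pass the test for GREM1 against control, and Cacna1s passed it with the replicate block.
Atp2a1: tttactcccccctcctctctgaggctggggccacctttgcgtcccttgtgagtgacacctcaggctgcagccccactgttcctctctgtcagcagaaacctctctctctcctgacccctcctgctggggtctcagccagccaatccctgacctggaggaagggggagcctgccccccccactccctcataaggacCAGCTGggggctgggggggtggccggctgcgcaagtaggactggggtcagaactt
Mrln: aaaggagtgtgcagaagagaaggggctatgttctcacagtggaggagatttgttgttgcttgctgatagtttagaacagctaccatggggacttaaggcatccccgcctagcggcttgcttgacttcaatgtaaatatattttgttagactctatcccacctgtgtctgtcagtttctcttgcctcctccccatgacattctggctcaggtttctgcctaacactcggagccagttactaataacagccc
Cacna1s: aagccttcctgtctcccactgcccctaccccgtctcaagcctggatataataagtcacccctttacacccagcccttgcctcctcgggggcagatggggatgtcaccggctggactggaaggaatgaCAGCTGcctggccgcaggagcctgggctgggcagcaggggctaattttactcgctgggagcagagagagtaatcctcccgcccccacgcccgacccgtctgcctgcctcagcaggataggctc
Fkbp1a: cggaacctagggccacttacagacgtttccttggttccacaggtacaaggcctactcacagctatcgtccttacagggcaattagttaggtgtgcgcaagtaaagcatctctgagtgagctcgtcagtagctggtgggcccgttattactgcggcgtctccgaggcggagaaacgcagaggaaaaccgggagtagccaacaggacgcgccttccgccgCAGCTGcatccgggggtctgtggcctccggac
The match begins 55 bases before the start site in Atp2a1, 123 in Cacna1s and 32 in Fkbp1a, and the letters are not in the Mrln window. Of the 18 genes with a window, 8 held CAGCTG, or 44.4%, against 14.7% of all 27025 genes with a window and 15.2% of the 13185 tested genes with one. They were Atp2a1, Cacna1s, Casq1, Cav3, Fkbp1a, Hrc, Jph2 and Orai1. The MEF2 consensus was in 3 of the 18 genes, Casq2, Clcn1 and Pvalb, or 16.7% against 3.42% of all genes and 2.24% of the tested genes. Of these, Clcn1 was itself not tested and Pvalb lay close to the filter limit. A gene with several windows was counted if any of them held the match. These matches describe letters in a window and were not tested against the values.

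The T-tubule genes were Bin1, Cav3 and Mtm1. Bin1 read 9.51, 10.02 and 9.65 in the controls, 9.94, 10.05 and 9.63 with BMP4, and 10.30, 10.36 and 10.35 with GREM1. The GREM1 arrays lay above all others and close together. Bin1 rose by 0.61 ± 0.15 (1.52-fold, adjusted p = 0.0494, and 0.0144 with the block), a call near the threshold that was lost without control replicate 1 or 3, BMP4 replicate 1 or 2 or any GREM1 array (adjusted p up to 0.150). It was also lost when only the compared groups were fitted, with array weights, with a further quantile normalization and with no filter.

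Cav3, the muscle caveolin of the surface membrane and forming T-tubules, read 8.79, 8.85 and 8.15 in the controls and 9.16, 9.32 and 9.01 with GREM1. The groups did not overlap, and the difference of 0.57 ± 0.25 passed with the block (adjusted p = 0.252, and 0.0244 with it). Mtm1, the lipid phosphatase myotubularin that is lost in a centronuclear myopathy, read 4.79, 4.84 and 4.95 in the controls and 5.04, 5.21 and 5.49 with GREM1. Its difference of 0.39 ± 0.11 also passed with the block (adjusted p = 0.0909, and 0.0414 with it). With BMP4 the 3 T-tubule genes differed from control by 0.061 to 0.19.

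In the voltage sensor and release channel group all 8 values were above 0 with GREM1, with a median of 0.44. None of the 8 passed without the block and 5 passed with it, where 2.07% and 5.58% of all tested genes passed higher. limma gave 4 of the 8 an unadjusted p under 0.05, where 20.0% of all tested genes had one. Ryr1, the ryanodine receptor of skeletal muscle, read 9.0, 9.06 and 8.39 in the controls, 8.95, 8.81 and 8.11 with BMP4, and 9.58, 9.48 and 9.18 with GREM1. Its GREM1 arrays lay above every other array although replicate 3 was low in each group. The difference was 0.59 ± 0.24 (adjusted p = 0.204, and 0.00919 with the block). Cacna1s read 8.93, 9.21 and 7.91 in the controls, 9.31, 9.20 and 8.0 with BMP4, and 9.54, 9.44 and 8.81 with GREM1, where the third GREM1 array fell among the controls. Its difference of 0.58 ± 0.41 had an adjusted p of 0.474, and of 0.0301 with the block.

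The subunits that travel with the voltage sensor gave like values. Cacng1, its gamma subunit, read 8.55, 8.84 and 7.99 in the controls and 9.12, 9.35 and 8.89 with GREM1, which did not overlap (0.66 ± 0.27, adjusted p = 0.200, and 0.00598 with the block). Cacna2d1, the alpha2-delta subunit, was 0.44 ± 0.20 (adjusted p = 0.266, and 0.00912 with the block), and Cacnb1, the beta subunit, was 0.25 ± 0.29 and did not pass in either fit. Stac3, an adaptor that the voltage sensor needs to reach and open the release channel, read 7.73, 7.99 and 7.88 in the controls and 8.37, 8.12 and 8.42 with GREM1. Its difference of 0.44 ± 0.14 did not pass in either fit (adjusted p = 0.121, and 0.0970 with the block).

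Ryr3, a second ryanodine receptor that muscle makes early and most adult muscle loses, lay near the filter limit, at 4.07 to 4.23 in the controls and 4.23 to 4.70 with GREM1. Its difference was 0.32 ± 0.12 (adjusted p = 0.180, and 0.0461 with the block). Fkbp1a, the immunophilin that steadies the release channel and is made in nearly all cells, differed by 0.023 ± 0.10 with GREM1 and 0.17 ± 0.10 with BMP4, and BMP4 replicate 3 was its highest array.

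Among the 9 genes of the junction and of calcium storage, 0 passed without the block and 3 passed with it, against the same 2.07% and 5.58%. limma gave 3 of the 9 an unadjusted p under 0.05, against 20.0%. Srl, sarcalumenin, a calcium-binding protein of the reticulum, read 9.52, 9.75 and 9.10 in the controls, 9.75, 9.75 and 8.89 with BMP4, and 10.29, 10.24 and 10.22 with GREM1. The GREM1 arrays were above all others and close together, with a difference of 0.79 ± 0.23 (adjusted p = 0.0932, and 0.0154 with the block). Hrc, a histidine-rich calcium-binding protein of the reticulum, read 10.33, 10.24 and 9.56 in the controls, 10.22, 10.11 and 9.02 with BMP4, and 10.69, 10.66 and 10.36 with GREM1. Its GREM1 arrays lay just above the highest control, and the difference of 0.53 ± 0.31 did not pass in either fit (adjusted p = 0.382, and 0.0616 with the block).

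Junctophilins tie the T-tubule to the reticulum. Jph1 was 0.60 ± 0.31 with GREM1 (adjusted p = 0.314, and 0.0205 with the block), with 8.41, 8.51 and 7.50 in the controls and 8.89, 8.85 and 8.49 with GREM1. Jph2 varied least between replicates of the pair, at 7.01, 7.04 and 7.05 in the controls, 7.10, 7.12 and 6.99 with BMP4, and 7.47, 7.30 and 7.25 with GREM1. Its difference was smaller, 0.31 ± 0.083, but its GREM1 arrays did not overlap the others (adjusted p = 0.0727, and 0.0466 with the block).

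The calsequestrins, which hold calcium in the reticulum, differed in how their arrays fell. Casq2, the form of cardiac and slow muscle, read 10.25, 10.81 and 10.28 in the controls and 11.07, 11.03 and 11.13 with GREM1, without overlap (0.63 ± 0.21, adjusted p = 0.124, and 0.0512 with the block). Casq1, the fast-muscle form, read 9.26, 9.97 and 8.85 in the controls, 9.91, 10.09 and 9.10 with BMP4, and 9.78, 9.87 and 8.99 with GREM1, and the 3 groups overlapped throughout. Its difference was 0.19 ± 0.35 for GREM1 and 0.34 ± 0.35 for BMP4. No difference between the calsequestrins was tested.

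Triadin, Trdn, which anchors calsequestrin to the release channel, was the lowest of the 29 values with GREM1 at -0.13 ± 0.41, with 8.87, 8.12 and 7.34 in the controls and 8.16, 8.14 and 7.65 with GREM1. Its GREM1 array differed from the control by -0.71 within number 1 and by 0.31 within number 3. Jsrp1, a junctional protein that binds the voltage sensor, was 0.19 ± 0.098, and Asph, whose locus also encodes the reticulum protein junctin and a hydroxylase found in most cells, was 0.018 ± 0.077. Neither passed in either fit, and 1 probe set does not part the products of Asph.

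Store-operated entry, by which Stim1 in the reticulum opens Orai1 in the surface membrane when the store is empty, showed no call. Stim1 read 7.09, 7.01 and 6.19 in the controls and 7.07, 7.07 and 6.79 with GREM1, a difference of 0.21 ± 0.23, and Orai1 was 0.23 ± 0.17 (adjusted p = 0.662 and 0.498). Of the genes of surface excitability, Atp1b1, a beta subunit of the sodium pump, was 0.28 ± 0.18 (adjusted p = 0.415, and 0.0611 with the block). Clcn1, the chloride channel that keeps the fibre membrane at rest, read 3.63 to 4.0 over the 9 arrays and passed the limit on 1 of them.

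With BMP4 the 29 values against control ran from -0.26 for Hrc to 0.42 for Sln, and the smallest adjusted p among the 28 tested was 0.719, for Fkbp1a. Without control replicate 3 the median over the 29 genes was -0.095, and without BMP4 replicate 3 it was 0.14, in place of 0.028. Within number 1 the BMP4 array was above the control in 19 of 29 genes, within number 2 in 15 and within number 3 in 12, with medians of 0.092, 0.0052 and -0.046. Of all tested genes 48.7%, 46.7% and 47.6% were above the control within these numbers. Ryr1 was -0.20 ± 0.24, Mrln -0.20 ± 0.16, Casq2 0.13 ± 0.21, Cacng1 0.27 ± 0.27 and Srl 0.0055 ± 0.23 with BMP4.

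Between the treatments 25 of 29 values were lower with BMP4, where 50.0% of all tested genes were higher, and the groups did not overlap for 13, all lower with BMP4, where 12.2% of tested genes lay lower in this way. Beside Atp2a1 and Mrln the largest differences were in Ryr1 (-0.79 ± 0.24), Srl (-0.79 ± 0.23) and Hrc (-0.78 ± 0.31), which did not pass without the block (adjusted p = 0.0945, 0.0865 and 0.196). Without BMP4 replicate 3 the median over the 29 genes was -0.16 in place of -0.33.

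Other genes of calcium handling were read from a list of 94, of which 81 were measured and 69 tested. For GREM1 against control 4 rose and 3 fell, or 10.1% of those tested, where 4.28% of all tested genes were called. All 7 kept their call with the block (adjusted p from 0.00175 to 0.0125), and with it 8 rose and 5 fell, where 11.6% of all tested genes were called. For BMP4 against control 0 passed in either fit, where 0.117% of all tested genes passed without the block and 0.379% with it. limma gave 5 of 69 an unadjusted p under 0.05 there, where 8.02% of all tested genes had one. The median of the 81 was 0.055 with GREM1 and 0.012 with BMP4. Between the treatments 5 were higher with BMP4 (Cacnb2, Orai2, Sri, Nfatc1 and Fxyd5) and 3 lower (Dysf, Slc8b1 and Camk2a), where 3.62% of all tested genes were higher and 2.83% lower. Without control replicate 1 or 3 the count for GREM1 was 1, Slc8b1 in both, and it was 3, 2 and 3 without GREM1 replicates 1, 2 and 3, and 4 without BMP4 replicate 1. Over all tested genes these runs called 307, 268, 248, 245, 482 and 579, in place of 734.

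Tmem38a and Tmem38b encode the TRIC channels, which let potassium cross the reticulum membrane as calcium leaves. Tmem38a read 7.69, 8.51 and 7.63 in the controls and 8.97, 9.14 and 9.10 with GREM1 and rose by 1.12 ± 0.25 (2.18-fold, adjusted p = 0.0415). Tmem38b rose by 0.88 ± 0.20 (adjusted p = 0.0388), and for both the GREM1 arrays lay above all others. Dysf, dysferlin, which reseals the membrane and lies at T-tubules, rose by 0.95 ± 0.19 (adjusted p = 0.0280) from 8.11, 8.24 and 7.69 to 9.03, 8.94 and 8.93. Each of these 3 lost the call without control replicate 1 or 3 or any GREM1 array, with adjusted p up to 0.138, 0.134 and 0.107. Tmem38a and Tmem38b also lost it without BMP4 replicate 1 and with no filter, Tmem38a with only the compared groups or array weights, and Tmem38b without BMP4 replicate 2. Dysf was 1.05 ± 0.19 lower with BMP4 than with GREM1 (adjusted p = 0.0124, lost without GREM1 replicate 1 at 0.0571).

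Slc8b1, the sodium-calcium exchanger of mitochondria, was the one gene of the 7 that kept its call against control under every alternative run. It read 5.75, 5.91 and 5.95 in the controls, 6.25, 6.07 and 6.14 with BMP4, and 6.55, 6.68 and 6.75 with GREM1, so the 3 groups did not overlap. It rose with GREM1 by 0.79 ± 0.092 (1.73-fold, adjusted p = 0.00316, at most 0.0196 under the alternatives), and was 0.28 ± 0.092 with BMP4 (adjusted p = 0.498). Between the treatments it was 0.51 ± 0.092 lower with BMP4 (adjusted p = 0.0115, at most 0.0493 under the alternatives). Mcu, the pore of the mitochondrial calcium uniporter, was 0.53 ± 0.24 with GREM1 (adjusted p = 0.266, and 0.00808 with the block). The 6 measured genes of mitochondrial calcium uptake, with these among them, ran from -0.15 to 0.79 with GREM1. Of these values 4 were above 0 and 2 below, with a median of 0.10.

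The genes that fell with GREM1 were paralogs or partners of the 30. Orai2, a second calcium entry channel, read 7.67, 7.62 and 7.59 in the controls, 7.88, 7.89 and 7.94 with BMP4, and 6.92, 6.97 and 6.26 with GREM1. The 3 groups did not overlap, and Orai2 fell by 0.91 ± 0.16 on the log2 scale (adjusted p = 0.0182) while BMP4 was 0.28 ± 0.16 (adjusted p = 0.702). Between the treatments it was 1.19 ± 0.16 higher with BMP4 (2.28-fold, adjusted p = 0.00262, at most 0.0149 under the alternatives). Its fall lost the call without control replicate 1 or 3 and when only the compared groups were fitted (adjusted p up to 0.0606). Cacnb2, the beta subunit of the cardiac channel, fell by 0.70 ± 0.15 (adjusted p = 0.0344) from 6.46, 6.02 and 6.31 to 5.81, 5.42 and 5.46. Fxyd5, a regulator of the sodium pump, fell by 0.62 ± 0.14 (adjusted p = 0.0459) and lost the call without any one of the 9 arrays, with only the compared groups and with no filter (adjusted p up to 0.124), while its difference between the treatments, 0.85 ± 0.14 higher with BMP4 (adjusted p = 0.00822), kept it under every alternative run (highest adjusted p = 0.0357). Cacnb2 lost its call without control replicate 1 or 3 or GREM1 replicate 2 or 3, with only the compared groups and with array weights (adjusted p up to 0.130). It was 0.67 ± 0.15 higher with BMP4 than with GREM1 (adjusted p = 0.0304), which was lost without BMP4 replicate 1 or 3 or GREM1 replicate 2 or 3 (up to 0.117).

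Between the treatments 3 further genes passed. Camk2a, a calcium and calmodulin dependent kinase, was 1.23 ± 0.27 lower with BMP4 (adjusted p = 0.0296), with 7.37, 7.31 and 6.55 against 8.53, 8.56 and 7.82 with GREM1. Sri, sorcin, which binds the release channel, was 0.77 ± 0.17 higher with BMP4 (adjusted p = 0.0292), and Nfatc1, a transcription factor that calcineurin activates, was 0.44 ± 0.096 higher (adjusted p = 0.0271). Sri read 8.50, 8.35 and 8.76 in the controls and 7.82, 7.75 and 8.11 with GREM1, and its GREM1 difference from control passed with the block (-0.64 ± 0.17, adjusted p = 0.0725, and 0.00380 with it). Camk2a, likewise, was 1.10 ± 0.27 above control (adjusted p = 0.0548, and 3.57e-04 with the block). Camk2a, Sri and Nfatc1 each lost the call between the treatments without GREM1 replicate 1 or 2 or BMP4 replicate 3 and with only the compared groups (adjusted p up to 0.119, 0.113 and 0.0971). Camk2a and Sri also lost it without BMP4 replicate 2, and Nfatc1 without BMP4 replicate 1 or GREM1 replicate 3.

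**Figure D4:**
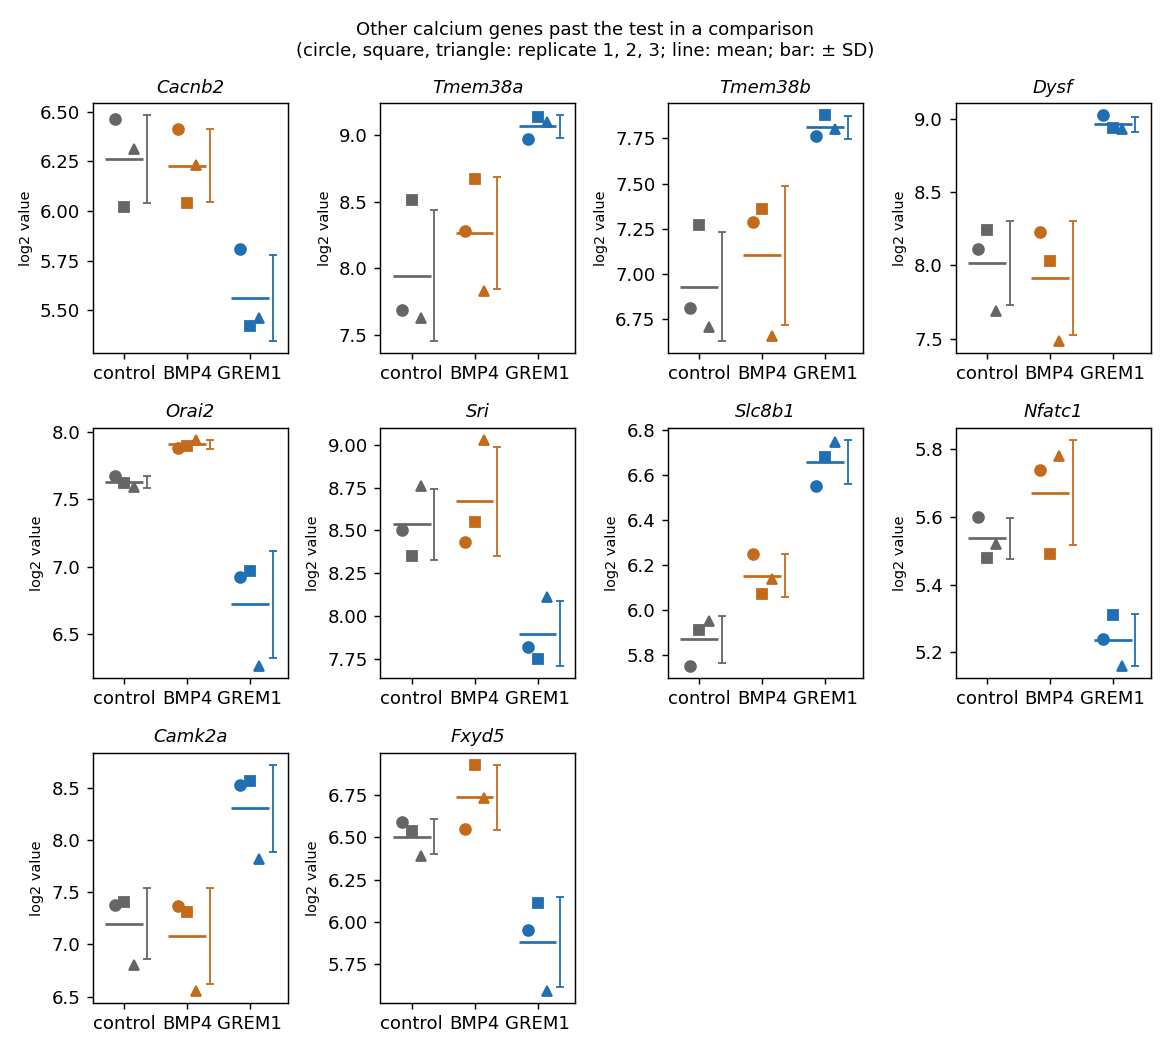
log2 values on each array of the 10 other calcium genes that passed the test in a comparison (symbols for replicates 1, 2 and 3, line for the group mean, bar for ± SD, n = 3 arrays a group). Tmem38a, Tmem38b, Dysf, Slc8b1 and Camk2a are highest with GREM1, and Cacnb2, Orai2, Sri, Nfatc1 and Fxyd5 are lowest.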

How the data were processed

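Values were used as deposited: log2 expression, which the authors obtained with RMA (background correction, normalization across arrays and 1 summary per probe set) in Affymetrix Expression Console, according to the submitters' processing notes. Per the labels, 50 ng of total RNA was amplified before labelling. Neither a chip definition nor a genome build is named there. The 9 arrays held 24973 probe sets from 1.8 to 12.7, and their number sets the precision.

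By the platform annotation 24015 probe sets had 1 gene symbol, 0 several and 958 none, and the last were not used. The filter kept the 17142 of 24011 genes that on 3 or more arrays exceeded the 30th percentile of named probe sets (3.89 to 4.02). Differences came from limma 3.58.1 in R 4.3.3, with lmFit and eBayes over the 9 arrays, two-sided, and Benjamini-Hochberg adjustment over all tested genes at 0.05. The script was tested on simulated data.

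Members, roles, the list of other calcium genes and the markers were chosen with earlier results of these data known. All 30 members are named, as are the other calcium genes past the threshold in a comparison. Mcu was chosen after its values were seen.

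The labels number the replicates 1 to 3 in each group. With group means removed, same-numbered arrays correlated across genes at 0.17 to 0.58 for BMP4 and control and 0.118 to 0.473 for GREM1 and control. Arrays with different numbers correlated at -0.475 to 0.144 and at -0.338 to 0.159, so for GREM1 and control the ranges overlapped. The highest same-number values, 0.58 and 0.473, were those of number 3. For the members the replicate block is given beside those results where it changed a call, and beside some others. For markers and other calcium genes it is given in counts and for some genes only. For BMP4 and GREM1 the lowest same-number value was 0.088, and that block is given only among the alternatives.

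Alternatives were the replicate block, fitting only the compared groups, an intensity trend, array weights, repeated quantile normalization, centring on array medians, no filter, a 50th percentile filter, averaging a gene's probe sets, and leaving out each array.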

Additional observations from a re-analysis of the deposited data

How the results depend on the processing

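For BMP4 against control 0 members and 0 other calcium genes passed under any alternative run. For GREM1 against control the 3 members were 13 with the replicate block and 0 to 5 with each array left out, and the 7 other calcium genes were 13 with the block, 4 with only the compared groups, 4 with no filter and 1 to 8 with each array left out. Between BMP4 and GREM1 the 2 members were 11 with the block, all lower with BMP4, where 1001 of all 17142 tested genes passed lower. Among the 11 were Ryr1, Srl and Hrc (adjusted p = 0.00168, 0.0125 and 0.0114). With each array left out the members were 2 to 3. The 8 other calcium genes were 15 with the block, where 2192 of all tested genes were called. They were 5 with only the compared groups and 4 to 9 with each array left out. Over all tested genes, 20 called for BMP4 became 65 with the block, 5 with only the compared groups, 68 with array weights, 31 with the 50th percentile filter and 2 to 17 with each array left out. For GREM1 734 became 1985 with the block, 437 with only the compared groups and 245 to 901 with each array left out. Between the treatments 1105 became 2192 with the block, 1768 with array weights and 563 to 1159 with each array left out. The cause of these differences was not tested. The members' median with each array left out lay between 0.27 and 0.47 for GREM1 against control, -0.095 and 0.14 for BMP4 against control, and -0.43 and -0.16 between the treatments, so the second changed sign. Of 702 single-gene values recomputed per comparison, 63 lost and 23 gained a call for GREM1, 21 and 14 between the treatments, and 0 and 0 for BMP4. No called value changed sign, and values without a call did so 17, 10 and 56 times.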
